A study of Mus musculus with 10 samples.

Results

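*Hand2*, *Msx1* and *Msx2*, the FGF ligands *Fgf1*, *Fgf2*, *Fgf9* and *Fgf18*, and the FGF receptors *Fgfr1*, *Fgfr2* and *Fgfr3* were followed in the uterus of mice that overexpress human HSD17B1, the enzyme that converts estrone to the more potent estradiol. The 10 genes were chosen by symbol among the 29268 genes of the table, and each symbol was found once. The RNA came from uteri of 10 female mice aged 4 months, and the part of the uterus that was used is not stated. There was 1 library per mouse, named TG1 to TG5 for the HSD17B1TG mice and WT1 to WT5 for the WT mice. The HSD17B1TG mice were FVB/N females of a heterozygous line that carries human *HSD17B1* cDNA under a CMV-enhanced chicken beta actin promoter, so that the enzyme is made in all tissues and not in the uterus alone. The WT mice were controls of the same age without the transgene. The methods for histology state that the transgenic females lack an estrous cycle, whereas the WT uteri stem from whichever phase the female was in, so the genotype and the absence of cycling cannot be told apart. The labels name neither litter nor batch, and transcripts of the human transgene were not analysed here.

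HAND2 is a basic helix-loop-helix transcription factor of the uterine stroma that is induced by progesterone. In the receptive uterus it is known for holding down the production of FGF ligands by stromal cells, ligands that otherwise act on FGF receptors of the overlying epithelium, raise ERK signalling and keep epithelial cells dividing. MSX1 and MSX2 are homeodomain transcription factors that are needed for the uterus to become receptive to the embryo, and they too are known to restrain stromal FGF ligands. The receptors are tyrosine kinases whose ligand preference depends on alternative splicing of an extracellular exon, and the gene counts used here do not separate those splice forms.

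The libraries held from 14817228 to 23271988 counts on genes. All 10 genes passed edgeR's filter on low counts. A gene was called when its adjusted p was under 0.05, its fold change over 2 and its mean FPKM over 1 in either group. FPKM scales the fragment count of a gene to its length and to the depth of the library, which these values take from DESeq2's size factors. It is the scale on which levels of different genes are set side by side below. Markers of the 2 tissue compartments of the endometrium also differed between the groups. The mean of 9 stromal markers was 8.58 ± 0.67 log2 CPM in HSD17B1TG against 9.65 ± 0.22 in WT (SD, n = 5). This difference passed a two-sided exact permutation test (p = 0.0159). The mean of 10 epithelial markers was 7.97 ± 0.86 in HSD17B1TG and 6.80 ± 0.55 in WT (p = 0.0476, exact). TG1 stood apart from the other HSD17B1TG mice, with 9.50 in stroma and 6.50 in epithelium, both within the range of WT. Mitochondrial genes took 1.94% to 7.57% of the counts in HSD17B1TG, with TG1, TG4 and TG5 above every WT mouse and TG2 and TG3 below, and 2.58% to 3.37% in WT. The part of this share in the values of the 10 genes was not tested. In RNA of tissue with several cell types, fewer cells of a type and less RNA per cell cannot be told apart.

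Of the 10 genes, 2 were called, *Hand2* and *Msx1*, and both fell in HSD17B1TG. Among all 16993 genes tested, 4.24% were called, 2.08% as lower and 2.16% as higher. The same 2 genes were those whose FPKM did not overlap between the groups, against 6.69% of all genes tested. The 8 genes that were not called had adjusted p between 0.291 and 0.871 in edgeR. The median log2 fold change of the 10 genes was -0.24, beside 0.0021 over all genes tested. In WT the order of mean FPKM was *Msx1*, *Hand2*, *Fgfr2*, *Fgfr1*, *Fgf2*, *Msx2*, *Fgf18*, *Fgfr3*, *Fgf9* and *Fgf1*, and in HSD17B1TG it began with *Fgfr2* and *Fgfr1*, with *Msx1* as number 3 and *Hand2* as number 4. The intervals of mean ± SD of neighbours in these orders overlapped, with the exception of *Hand2* and *Fgfr2* in WT.

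**Figure D1:**
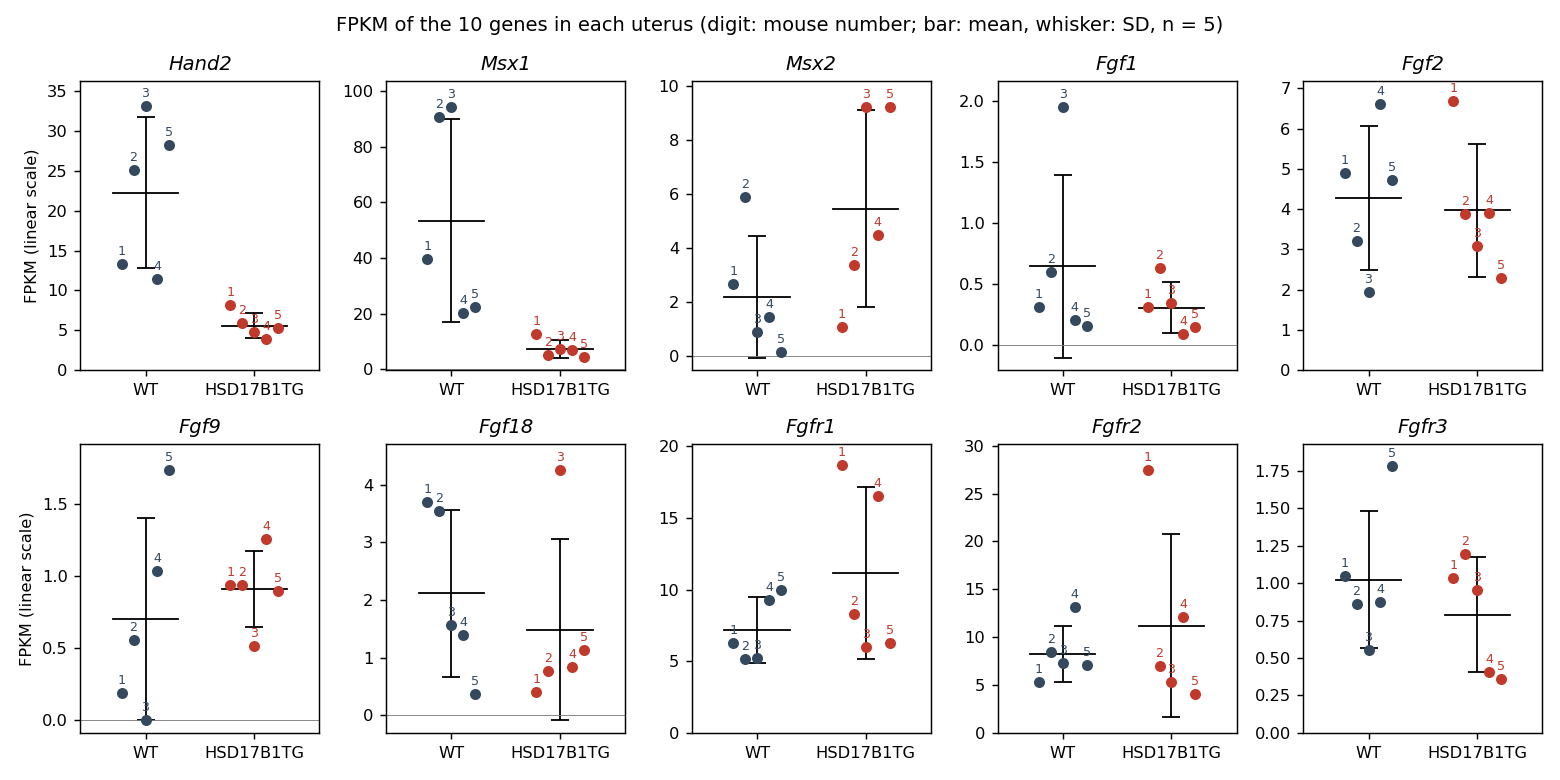
FPKM (vertical axes, linear) of each of the 10 genes in WT and HSD17B1TG uteri, with 1 point per mouse, the mouse number above it, the mean as a bar and the SD as a whisker. *Hand2* and *Msx1* are the panels in which every HSD17B1TG point lies below every WT point, while in the other 8 panels the groups overlap.

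*Hand2* was about 4 times less abundant in HSD17B1TG. Its FPKM was 8.17 in TG1, 5.89 in TG2, 4.82 in TG3, 3.85 in TG4 and 5.27 in TG5. In WT it was 13.4 in WT1, 25.1 in WT2, 33.2 in WT3, 11.4 in WT4 and 28.2 in WT5. All 5 HSD17B1TG mice thus lay below the lowest WT mouse, and TG1 and WT4 were the nearest pair across the groups. Group means were 5.60 ± 1.62 FPKM for HSD17B1TG and 22.2 ± 9.47 FPKM for WT (SD, n = 5), which differ 3.97-fold. The log2 fold change was -2.00 ± 0.33 (SE, edgeR, adjusted p = 0.0177), and the exact permutation test of log2(FPKM + 1) gave p = 0.00794, the smallest value that 5 against 5 mice can give. The call was made in 9 of the 10 fits that left out a mouse, and without TG5 the log2 fold change of -1.98 had an adjusted p of 0.0514. Without TG1 it was -2.17. *Hand2* lies on the plus strand of chromosome 8 at 57320983 to 57324633 (GRCm38). Of its 2351 exonic bases, 461 are shared with the antisense gene *Hand2os1*, which was not analysed here, and the strand setting of the counting is not given in the sources used here.

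*Msx1* showed the larger of both changes and was the most abundant of the 10 genes in WT. Its FPKM was 12.5 in TG1, 5.25 in TG2, 7.33 in TG3, 7.05 in TG4 and 4.42 in TG5. In WT it was 39.7 in WT1, 90.8 in WT2, 94.2 in WT3, 20.4 in WT4 and 22.3 in WT5. The WT mice thus spanned a 4.63-fold range, with WT2 and WT3 high, whereas the HSD17B1TG mice spanned a 2.83-fold range, and the groups did not overlap. The mean was 7.31 ± 3.15 FPKM in HSD17B1TG and 53.5 ± 36.4 in WT (SD, n = 5), and the log2 fold change was -2.88 ± 0.50 (SE, edgeR, adjusted p = 0.0207; exact permutation test, p = 0.00794). The call was lost, with an adjusted p of at most 0.0561, when TG2, TG4, TG5 or WT2 was left out, while the log2 fold change stayed between -3.16 (without TG1) and -2.60 (without WT3). *Msx1* lies on the minus strand of chromosome 5 at 37820485 to 37824583 and shares no bases with another gene of the annotation used. The ratio of *Msx1* to *Hand2* within a mouse ranged from 0.838 to 1.83 in HSD17B1TG and from 0.791 to 3.62 in WT, and its mean log2 was 0.33 ± 0.51 against 1.09 ± 0.88 (difference -0.75; exact permutation test, p = 0.151).

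Because both genes fell together, the 250 bases before their transcription starts are shown as RefSeq gives them for GRCm38.p6. The window of *Hand2* is chr8:57320733-57320982 on the plus strand and that of *Msx1* is chr5:37824586-37824835 on the minus strand. Both are written 5′ to 3′ and end next to the start. Capitals mark E-boxes (CANNTG, the kind of letters that helix-loop-helix proteins such as HAND2 read), CCAAT boxes (CCAAT) and a homeodomain core (TAATTG), each searched on both strands, with no base in more than 1 match.
Hand2: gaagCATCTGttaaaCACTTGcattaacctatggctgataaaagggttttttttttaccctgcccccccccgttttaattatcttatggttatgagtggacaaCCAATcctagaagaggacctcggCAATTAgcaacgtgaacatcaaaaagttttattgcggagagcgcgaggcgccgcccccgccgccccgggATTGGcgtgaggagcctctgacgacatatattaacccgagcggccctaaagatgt
Msx1: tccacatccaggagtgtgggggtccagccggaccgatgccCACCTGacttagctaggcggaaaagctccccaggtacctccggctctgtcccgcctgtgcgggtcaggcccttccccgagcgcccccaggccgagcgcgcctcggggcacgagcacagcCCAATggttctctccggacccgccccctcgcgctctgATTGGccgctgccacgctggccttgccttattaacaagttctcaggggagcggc
The *Hand2* window held 2 E-boxes, 2 CCAAT boxes and 1 homeodomain core, and the *Msx1* window held 1 E-box, 2 CCAAT boxes and no homeodomain core. Over the 32851 RefSeq promoter windows of that length, 66.2% held an E-box, 33.8% a CCAAT box and 7.17% the homeodomain core. A steroid receptor half-site (TGTTCT, in 16.1% of windows) was found in neither, and an estrogen receptor half-site (GGTCA, in 35.2%) was found in the *Msx1* window, 1 time, and not in that of *Hand2*. These last 2 motifs were also searched on both strands and are not in capitals. GC content was 49.2% in the *Hand2* window and 68.0% in the *Msx1* window. Such matches describe letters in a window and do not show binding.

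*Msx2*, the paralogue of *Msx1*, did not fall with it. Its FPKM was 1.05 in TG1, 3.35 in TG2, 9.21 in TG3, 4.46 in TG4 and 9.21 in TG5. In WT it was 2.64 in WT1, 5.89 in WT2, 0.870 in WT3, 1.42 in WT4 and 0.119 in WT5, where it rested on 8 counts. TG3 and TG5 lay above every WT mouse, TG1 lay within the WT range, and WT spanned a 49.5-fold range. The mean was 5.46 ± 3.64 FPKM in HSD17B1TG and 2.19 ± 2.27 in WT, with a log2 fold change of 1.31 ± 0.83 (SE, edgeR, adjusted p = 0.347; exact permutation test, p = 0.127). It was 2.08 without WT2 (edgeR, adjusted p = 0.189), where the exact test reached p = 0.0476, and between 0.98 (without WT5) and 1.57 with another mouse left out. In WT the sum of *Msx1* and *Msx2* was thus mostly *Msx1*, and in TG3 and TG5 *Msx2* was the more abundant of the pair.

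None of the 4 ligands was called. *Fgf2*, the most abundant of them and a ligand of several FGF receptors, had 6.68, 3.89, 3.09, 3.90 and 2.28 FPKM in TG1 to TG5 and 4.89, 3.20, 1.94, 6.62 and 4.72 in WT1 to WT5. Its means of 3.97 ± 1.66 and 4.27 ± 1.78 FPKM differed by less than the spread between mice, with a log2 fold change of -0.11 ± 0.35 (SE, edgeR, adjusted p = 0.871). Its sign turned without WT4 (0.10). *Fgf18*, a ligand of the FGF8 subfamily, had 0.407, 0.775, 4.25, 0.836 and 1.14 FPKM in TG1 to TG5 and 3.70, 3.55, 1.57, 1.39 and 0.370 in WT1 to WT5. TG3 was therefore the highest of all 10 mice and the other 4 HSD17B1TG mice lay below 4 of the WT mice. The log2 fold change was -0.52 ± 0.71 (edgeR, adjusted p = 0.686) and moved to -1.44 without TG3, where it was not called either.

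*Fgf9*, a ligand that also signals from the epithelium in other organs, had 0.935, 0.940, 0.514, 1.25 and 0.898 FPKM in TG1 to TG5. In WT1 to WT5 it had 0.192, 0.555, 0, 1.03 and 1.73. The HSD17B1TG mice lay close together and inside the WT range, which ran from 0 counts in WT3, a count that allows up to 0.202 CPM, to 165 counts in WT5. The log2 fold change was 0.37 ± 0.84 (SE, edgeR, adjusted p = 0.822), 0.018 without WT3 and 1.00 without WT5. By limma voom with quality weights it was 1.66, and *Fgf9* was not called there either. *Fgf1*, a ligand of all FGF receptors, had 0.312, 0.631, 0.343, 0.0934 and 0.152 FPKM in TG1 to TG5 and 0.315, 0.600, 1.95, 0.208 and 0.158 in WT1 to WT5. Only WT3 stood out, with 146 counts. The log2 fold change of -1.07 ± 0.74 (edgeR, adjusted p = 0.394) became -0.087 without that mouse. Summed over the 4 ligands, FPKM ranged from 4.47 to 8.34 in HSD17B1TG and from 5.45 to 9.24 in WT.

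The receptors *Fgfr1* and *Fgfr2* were the most abundant FGF genes of the set in both groups. *Fgfr1*, a receptor found mainly on mesenchymal cells, had 18.7, 8.29, 5.98, 16.5 and 6.27 FPKM in TG1 to TG5 and 6.30, 5.17, 5.21, 9.25 and 9.97 in WT1 to WT5. TG1 and TG4 lay above every WT mouse and the other 3 lay within the WT range. The log2 fold change was 0.63 ± 0.36 (SE, edgeR, adjusted p = 0.291; exact permutation test, p = 0.246). *Fgfr2*, whose epithelial splice form receives FGF7 and FGF10, had 27.5, 7.03, 5.35, 12.1 and 4.11 FPKM in TG1 to TG5 and 5.36, 8.41, 7.34, 13.1 and 7.07 in WT1 to WT5. TG1 lay above every WT mouse, and TG5 and, by a narrow margin, TG3 lay below. The mean of 11.2 ± 9.59 FPKM in HSD17B1TG rested on TG1, since the log2 fold change of 0.44 ± 0.48 (edgeR, adjusted p = 0.610) turned to -0.21 without that mouse. The annotated span of *Fgfr2* in the table overlaps 69 other genes, with 314 exonic bases shared with *Ctbp2*. *Fgfr3* was low in both groups, at 0.789 ± 0.382 FPKM in HSD17B1TG and 1.02 ± 0.459 in WT, and TG4 and TG5 were lower than every WT mouse (log2 fold change -0.38 ± 0.41; edgeR, adjusted p = 0.604).

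Within a mouse, ratios of receptors do not depend on the scaling between mice. The mean log2 ratio of *Fgfr2* to *Fgfr1* was -0.18 ± 0.45 in HSD17B1TG and 0.19 ± 0.53 in WT (difference -0.38; exact permutation test, p = 0.294). That of *Fgfr3* to *Fgfr1* was -3.82 ± 1.11 and -2.86 ± 0.43 (difference -0.96; p = 0.0952, exact). When the FPKM of all 4 kinase receptors were summed in each mouse, *Fgfr1* took 50.1% ± 7.33 of the sum in HSD17B1TG and 38.3% ± 4.33 in WT, and *Fgfr2* took 44.3% ± 7.94 and 44.9% ± 11.2. *Fgfr4*, the remaining kinase receptor of the family, took 1.38% ± 1.21 in HSD17B1TG and 11.3% ± 6.94 in WT (SD, n = 5). Its share ranged from 0.192% to 3.19% and from 2.35% to 21.5%, with WT4 the WT mouse in the range of HSD17B1TG.

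**Figure D2:**
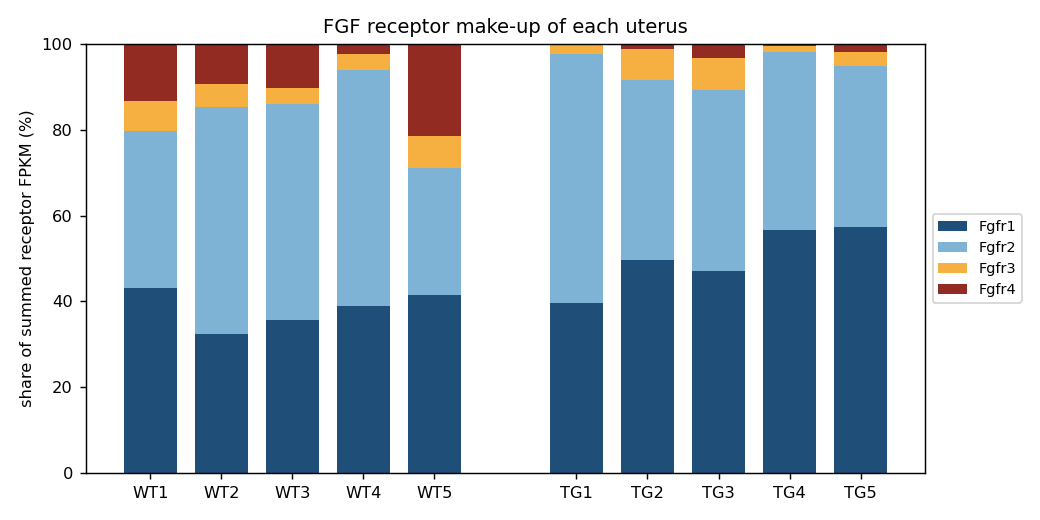
Share of each FGF receptor (colours) in the summed FPKM of *Fgfr1* to *Fgfr4* (vertical axis, percent) in each mouse (horizontal axis). *Fgfr1* and *Fgfr2* make up most of every bar, and the *Fgfr4* segment reaches 21.5% in WT5 and at most 3.19% in an HSD17B1TG mouse.

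The genes were also set against the compartment markers of the same mouse, by subtracting the mean log2 CPM of the markers from the log2 CPM of the gene, with 10 unadjusted exact permutation tests for each marker list. The stromal mean itself differed by -1.07 between the groups, so that a gene of equal level in both has a difference of about 1.07 relative to stroma. Relative to the stromal markers, *Msx1* was still lower in HSD17B1TG by a log2 difference of -1.60 (p = 0.0159, exact), although TG3 lay above WT5. The difference of *Hand2* was -0.84 (p = 0.0556, exact), so that its lower level was not shown to exceed that of the stromal markers. With each of the 10 mice left out in turn, this difference ran from -1.02 to -0.62. It passed in 2 of these tests (p from 0.0476 to 0.103, exact).

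The differences of *Fgfr1*, *Fgfr2*, *Fgf2* and *Fgf9* relative to stroma were 1.59 (p = 0.00794, exact), 1.21, 0.98 and 2.42 (p = 0.0317 for each of these 3, exact). Their own log2 CPM differed by 0.52, 0.14, -0.09 and 1.35, none of which passed (p = 0.230, 0.825, 0.794 and 0.302, exact). These 4 genes thus stood higher in relation to the stromal markers, and no rise of the genes themselves was shown. The result for *Fgf2* was lost without TG2, TG3 or WT3 (p = 0.0556 in each, exact) and when the 3 collagen genes were taken out of the stromal list (0.89, p = 0.0952, exact). That for *Fgf9* fell to 1.40 without WT3, the mouse with 0 counts, and was lost without TG2, TG3, TG4 or TG5 (p of at most 0.0952, exact). *Msx2* had a difference of 2.82 (p = 0.0635, exact), which passed without TG1 (3.55, p = 0.0159, exact) or WT2 (p = 0.0397, exact), and *Fgf1*, *Fgf18* and *Fgfr3* had differences of 0.38, 0.49 and 0.64 (p = 0.651, 0.595 and 0.198, exact).

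The epithelial mean differed by 1.17 in the other direction, so that a gene of equal level has a difference of about -1.17 relative to epithelium. *Hand2* was lower on this scale by a log2 difference of -3.08 (p = 0.0238, exact) and *Msx1* by -3.83 (p = 0.0159, exact). *Fgf18* had -1.75 (p = 0.0317, exact), while its own log2 CPM differed by -0.58 (p = 0.444, exact), and the result was lost without TG2, TG4, TG5, WT1, WT2 or WT3 (p = 0.0556 in each, exact). The 7 other genes did not pass, with *Msx2* at 0.59 (p = 0.508, exact) and *Fgfr3* at -1.60 (p = 0.0794, exact). Without TG1, 7 of the 10 genes passed the test, each with a negative difference. The epithelial mean was 6.50 in TG1 and 8.12 to 8.78 in TG2 to TG5. A gene of equal level therefore has a difference more negative than -1.17 when TG1 is left out. On log2(FPKM + 1) of the genes themselves, 2 of the 10 passed without TG1 (exact permutation test, p under 0.05). In edgeR, 3 of the 9 stromal markers were called, *Pdgfra*, *Thy1* and *Col3a1*, and all 3 fell, while 8 of the 9 had a negative log2 fold change. The summed FPKM of the stromal markers ranged from 591 to 2293 in HSD17B1TG and from 1941 to 2385 in WT. None of the 10 epithelial markers was called, 9 of them had a positive log2 fold change, and their summed FPKM ranged from 701 to 3234 in HSD17B1TG and from 507 to 1697 in WT. No marker of either list was at 0 in every mouse. Among markers of other cells, 3 of the 5 leucocyte markers tested were called, *Itgam* and *Cd68* as higher and *Ncr1* as lower, and none of the 8 smooth muscle, 7 endothelial, 4 mesothelial or 2 oviduct markers tested. All 8 smooth muscle markers had a positive log2 fold change (median 0.64). Their summed FPKM ranged from 867 to 7350 in HSD17B1TG and from 407 to 5776 in WT. Negative values were found for 5 of the 7 endothelial markers (median -0.61), and positive values for 3 of the 4 mesothelial markers (median 1.47). The part of these cells in the values of the 10 genes was not tested.

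**Figure D3:**
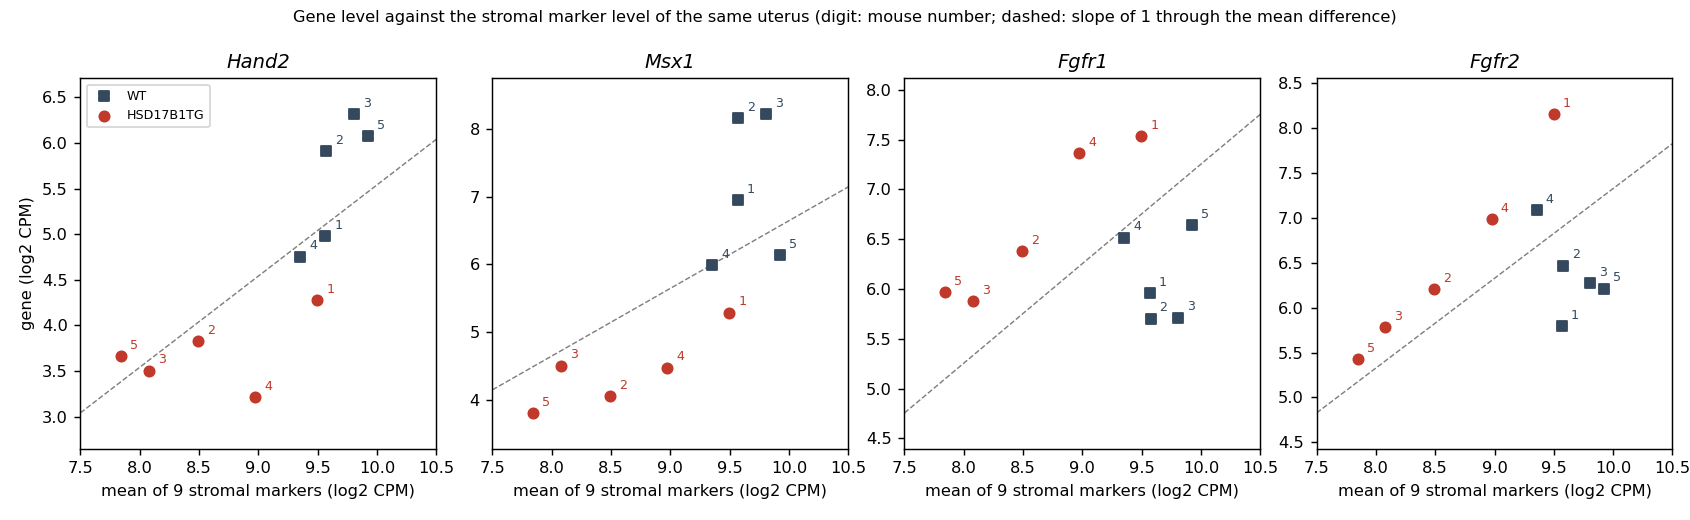
Level of *Hand2*, *Msx1*, *Fgfr1* and *Fgfr2* (vertical axes, log2 CPM) against the mean of the 9 stromal markers of the same uterus (horizontal axes, log2 CPM), with 1 point per mouse and a dashed line of slope 1. TG1 is the HSD17B1TG mouse within the stromal range of WT (9.50), with *Msx1* lower and *Fgfr1* higher than in every WT mouse, and the other 4 lie to the left of every WT mouse.

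The remaining genes of the FGF pathway were described by lists, which were chosen with earlier results of these data known. Of 18 further FGF ligands, 12 were in the table, 5 had enough counts to be tested, and 1 was called, beside 4.24% of all genes tested. That gene was *Fgf10*, a mesenchymal ligand of the epithelial form of FGFR2. Its FPKM was 0.571, 1.15, 1.42, 0.580 and 0.810 in TG1 to TG5 and 6.29, 3.82, 3.30, 3.04 and 6.23 in WT1 to WT5. Every HSD17B1TG mouse lay below every WT mouse, the log2 fold change was -2.33 ± 0.34 (SE, edgeR, adjusted p = 0.0164), and the call was made with each of the 10 mice left out in turn. *Fgf7*, another mesenchymal ligand of that receptor form, had 1.82 ± 0.840 FPKM in HSD17B1TG and 1.51 ± 0.513 in WT and was not called (log2 fold change 0.26; edgeR, adjusted p = 0.674). *Fgf11* and *Fgf13*, members of the family that act inside the cell, had log2 fold changes of 0.91 (adjusted p = 0.125) and -1.48 (adjusted p = 0.258) in edgeR, and *Fgf11* was called without WT4 (1.16, adjusted p = 0.0436).

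In a list of 17 genes, made up of co-receptors and binding proteins and the kinase receptor *Fgfr4*, 14 were tested and 3 were called. Of these, 2 were lower and 1 higher, beside 2.08% and 2.16% of all genes tested. *Fgfr4* had 0.0909 to 0.405 FPKM in HSD17B1TG and 0.560 to 5.16 in WT (log2 fold change -3.37 ± 0.62; edgeR, adjusted p = 0.0224; -2.75 without WT5). *Gpc1*, a heparan sulphate proteoglycan of the cell surface that presents FGF ligands, had 4.27 to 7.70 FPKM in HSD17B1TG and 9.95 to 42.2 in WT (log2 fold change -2.19 ± 0.34; edgeR, adjusted p = 0.0177). *Fgfrl1*, an FGF-binding receptor that lacks the tyrosine kinase, went the other way, with 20.3 to 43.0 FPKM in HSD17B1TG and 7.67 to 19.1 in WT (log2 fold change 1.56 ± 0.28; edgeR, adjusted p = 0.0211). The groups of all 3 genes did not overlap, beside 6.69% of all genes tested. The calls were lost for *Gpc1* without TG5, for *Fgfr4* without TG2, TG4, TG5 or WT2 and for *Fgfrl1* without TG2, TG5, WT2, WT3 or WT5, with adjusted p of at most 0.0508, 0.0609 and 0.0582. *Sdc4*, a syndecan, passed the adjusted p (0.0405, edgeR) with a log2 fold change of -0.61, below the fold required for a call. Its groups did not overlap either, with 34.0 to 41.3 FPKM in HSD17B1TG and 48.5 to 77.1 in WT.

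Downstream of the receptors, none of the 21 adaptors and kinases from *Frs2* to *Pik3r1* was called, and 2 of them had an unadjusted p under 0.05. Their log2 fold changes lay between -0.24 and 0.58 with a median of 0.06, and those with the smallest p were *Map2k1* (0.58; edgeR, adjusted p = 0.110), *Grb2* (0.33; 0.128) and *Hras* (0.30; 0.217). Of 17 feedback and target genes of FGF and ERK signalling, 1 was called, *Myc*, which fell. With 4.24% of all genes tested called, 1 of 17 is near the background. *Myc*, a transcription factor of growing cells, had 13.9 ± 1.76 FPKM in HSD17B1TG and 32.9 ± 15.9 in WT, where WT4 with 11.7 lay in the HSD17B1TG range (log2 fold change -1.25 ± 0.33; edgeR, adjusted p = 0.0498). The call on *Myc* was made in 1 of the 10 fits that left out a mouse, that without WT4, with adjusted p of at most 0.114 in the others. *Dusp6*, an ERK phosphatase that ERK signalling itself induces, had 21.4, 51.3, 99.6, 56.4 and 102 FPKM in TG1 to TG5 and 31.1, 7.73, 11.1, 55.1 and 11.8 in WT1 to WT5. TG3 and TG5 were highest and WT1 and WT4 lay among the HSD17B1TG mice, and the log2 fold change of 1.50 ± 0.58 was not called (edgeR, adjusted p = 0.133). *Dusp6* was called as higher without WT4 (2.09; edgeR, adjusted p = 0.0301) and by limma voom with quality weights (1.96; adjusted p = 0.0187), and in none of the other 9 fits that left out a mouse or the other 6 alternatives with all mice. *Etv1*, an ETS factor downstream of FGF, had a log2 fold change of 1.10 ± 0.34 (edgeR, adjusted p = 0.0714).

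Of 24 genes around HAND2 and MSX in the uterus, 21 were tested and 9 were called, all lower, beside 2.08% of all genes tested. The list was chosen with earlier results of these data known. The distance from that share may follow in part from the choice and is not a test of the list. The median log2 fold change of the list was -0.76. *Tcf4*, an E protein with which HAND factors pair, had 3.97 to 5.37 FPKM in HSD17B1TG and 6.09 to 14.4 in WT (log2 fold change -1.34 ± 0.22; edgeR, adjusted p = 0.0185), and its call was lost without TG2 or TG5 (adjusted p of at most 0.0527). *Tcf3* and *Tcf12*, the other E proteins, had log2 fold changes of -0.44 and -0.35 and were not called (edgeR, adjusted p = 0.200 and 0.0846). *Dlx6*, a homeobox gene, had 11.9 to 50.3 FPKM in HSD17B1TG and 7.67 to 16.3 in WT, with a log2 fold change of 1.28 that missed the threshold (edgeR, adjusted p = 0.0521). *Muc1*, an epithelial mucin, had the highest log2 fold change of the list, 2.28 ± 0.79, and was not called (edgeR, adjusted p = 0.0982), with 39.9 to 238 FPKM in HSD17B1TG and 4.02 to 70.4 in WT.

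The 3 hedgehog genes of this list fell. *Ihh*, the progesterone-induced ligand of the uterine epithelium, had 0.0528, 0.113, 0.0349, 0.183 and 0.759 FPKM in TG1 to TG5 and 0.841, 20.6, 18.6, 0.0794 and 3.48 in WT1 to WT5. WT2 and WT3, the mice with the highest *Msx1*, also had the highest *Ihh*, and WT4 lay in the HSD17B1TG range. The log2 fold change of *Ihh* was -5.28 ± 1.39 (SE, edgeR, adjusted p = 0.0498), -4.69 without WT2 and -6.51 without TG5. Its receptor gene and target *Ptch1* had -2.05 ± 0.51 (adjusted p = 0.0436) and the transcription factor *Gli1* had -4.54 ± 0.82 (0.0219) in edgeR. Of the 10 fits that left out a mouse, the call was made in 1 for *Ihh* (that without WT4), 2 for *Ptch1* and 5 for *Gli1*, and the largest adjusted p were 0.114, 0.0989 and 0.0573. Without TG2, TG4, TG5, WT2 or WT5 none of these 3 genes was called.

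*Wnt5a*, a non-canonical WNT ligand of the stroma, had 3.35 to 13.1 FPKM in HSD17B1TG and 20.5 to 62.5 in WT, with no overlap (log2 fold change -2.27 ± 0.44; edgeR, adjusted p = 0.0246). The homeobox genes *Hoxa10* and *Hoxa11*, which the uterine stroma needs for implantation, had log2 fold changes of -2.14 ± 0.43 (edgeR, adjusted p = 0.0268) and -2.36 ± 0.43 (0.0224). *Il15*, a cytokine that natural killer cells need, and *Fst*, which binds activins, also fell, with log2 fold changes of -1.87 ± 0.48 (edgeR, adjusted p = 0.0471) and -4.76 ± 1.13 (0.0388). The value of *Fst* was -3.30 without WT3 and -5.54 without TG4. Of the 10 fits that left out a mouse, these calls were made in 4 for *Wnt5a*, *Hoxa10* and *Hoxa11*, in 2 for *Il15* and in 3 for *Fst*, with adjusted p of at most 0.104. Without TG4, TG5, WT2, WT3 or WT5 none of these 5 genes was called. *Pgr*, the progesterone receptor, had 29.8 ± 17.4 FPKM in HSD17B1TG and 48.2 ± 18.1 in WT and was not called (log2 fold change -0.70 ± 0.40; edgeR, adjusted p = 0.298). The levels of stromal and epithelial markers given above moved with the genotype in the same mice, and their part in the changes of these lists was not tested.

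**Figure D4:**
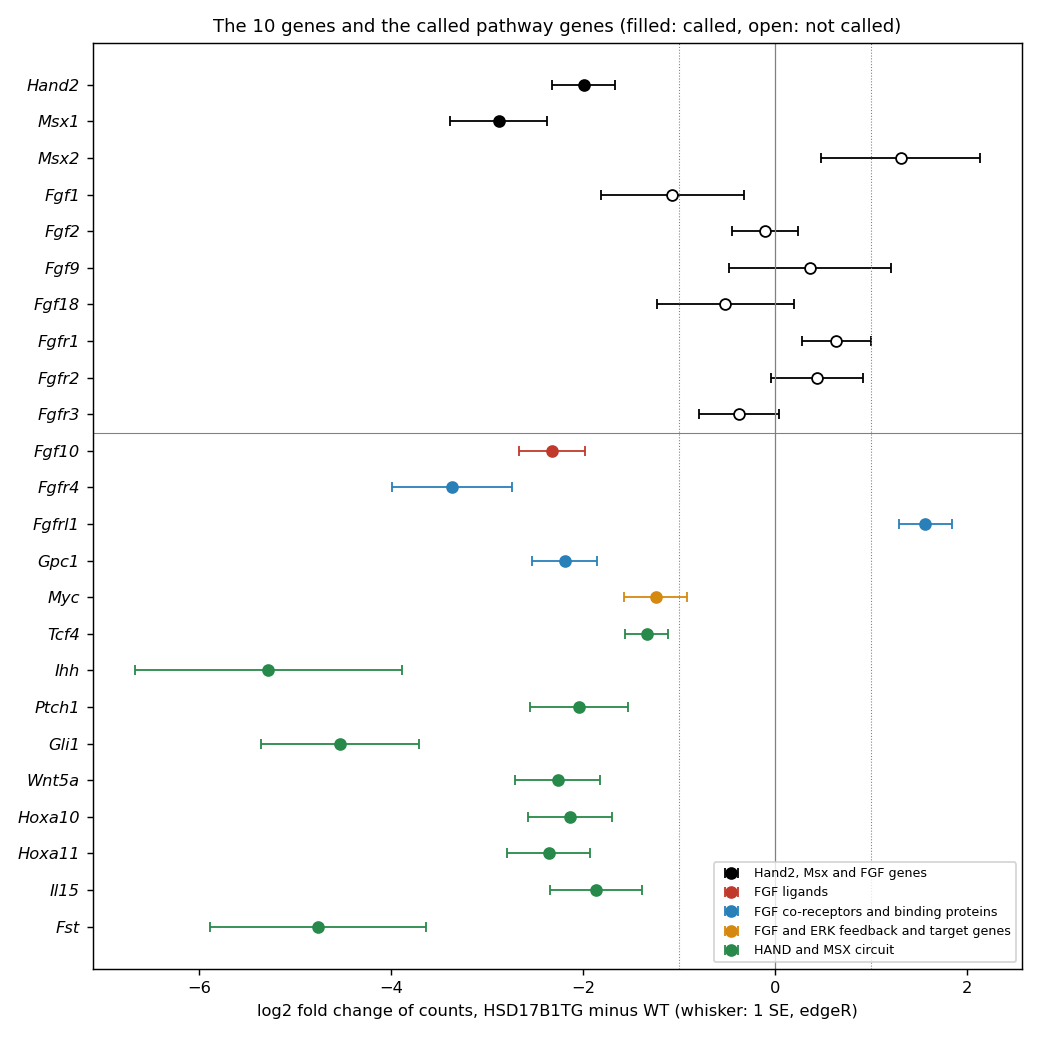
Log2 fold change of counts in HSD17B1TG relative to WT (horizontal axis; whiskers are 1 SE from edgeR) for the 10 genes (above the line) and for the pathway genes that were called (below it), with filled symbols for called genes. Of the pathway genes shown, *Fgfrl1* is the one to the right of 0, and the dotted lines mark a fold change of 2.

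Finally, genes were sought whose profile over the 10 mice was nearest to those of *Hand2* and *Msx1*, measured as the mean absolute difference of log2 CPM after each gene's own mean was subtracted, among 14314 protein-coding genes. The 5 nearest to *Hand2* were *Ebpl* (0.25), *Islr* (0.26), *Srsf12* (0.27), *Dpf1* (0.28) and *Chst2* (0.28), beside a median of 0.99 over all genes compared. *Islr* was the most abundant of these, with 21.9 ± 6.45 FPKM in HSD17B1TG and 102 ± 44.7 in WT. The 5 nearest to *Msx1* were *Col18a1* (0.42), *Ddah1* (0.43), *Tex15* (0.45), *Hhipl1* (0.45) and *Nid1* (0.47), beside a median of 1.35. *Col18a1* and *Nid1*, which encode basement membrane components, had 69.1 ± 37.0 and 91.8 ± 42.6 FPKM in WT and 11.8 ± 2.19 and 18.0 ± 7.58 in HSD17B1TG. *Msx1* itself stood at place 795 from *Hand2*, and *Hand2* at place 47 from *Msx1*, at a distance of 0.62. These distances include the difference between the genotypes, so that genes that fell are nearest.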

How the data were processed

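The authors sequenced uterine mRNA as paired-end reads of 150 bp, aligned them with HISAT2 2.0.5 to the mouse genome (Ensembl 94), and deposited raw counts per gene for 10 mice. They also deposited FPKM, which in this table were scaled by DESeq2's size factors, so that all mice share 1 fragment total per size factor. Which program counted the reads, and whether it used strand, is not given in the sources used here. Counts divided by size factors (a deposited signal) were not used, nor were the authors' columns of fold changes and p-values or the tables of enriched terms.

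Samples were grouped by the strain label and numbered within a group in accession order. Each library is 1 mouse, and no litter or batch is given. The genotypes were compared on counts by edgeR 4.0.16 under R 4.3.3 (filterByExpr, TMM, quasi-likelihood test, Benjamini-Hochberg adjustment over 16993 genes). Single genes, marker differences and ratios were compared with two-sided exact permutation tests over the 252 assignments of 10 mice in Python, on log2(FPKM + 1) or on log2 CPM with a prior count of 2. The members and the gene lists were chosen with earlier results of these data known, and 1 gene of the lists is not reported here. Named were all members, every called gene and the 3 genes with the smallest p of each pathway list, and the 5 nearest profiles. *Sdc4*, *Fgf7*, *Tcf3*, *Tcf12*, *Dlx6*, *Muc1*, *Pgr* and the share of *Fgfr4* were named after their values were seen. Gene positions matched GENCODE M21 (GRCm38) for 28478 of 29268 genes. RefSeq promoter windows matched 8 of the 10 members. DESeq2 1.42.0, limma 3.58.1 (voom), other normalizations, filters and pseudocounts, and each mouse left out in turn were the alternatives. The tests were tested on simulated data. Intervals and limits from counts cover counting error only.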

Additional observations from a re-analysis of the deposited data

Results flagged for a closer look

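Dixon's test at the 95% level, run on the FPKM of 31 named genes in each group of 5 mice, singled out 5 of 62 groups, where chance alone gives about 1 in 20 (3.1 groups). *Fgf1* was at 1.95 FPKM in WT3, beside 0.158 to 0.600 in the other WT mice. *Fgf18* was at 4.25 FPKM in TG3, beside 0.407 to 1.14 in the other HSD17B1TG mice. *Fst* was at 34.0 FPKM in WT3, *Ihh* at 0.759 FPKM in TG5 and *Il15* at 20.3 FPKM in WT1, each above the other mice of its group. Neither *Hand2* nor *Msx1* had such a value in either group, and TG1 gave none of the 5.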

How the results depend on the processing

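*Hand2* and *Msx1* were the 2 members called under each of 7 alternatives that used all 10 mice (DESeq2 size factors or upper quartile scaling in edgeR, 2 other filters on low counts, DESeq2's Wald test, limma voom with and without quality weights), with log2 fold changes between -2.09 and -1.89 and between -3.01 and -2.66. With each mouse left out in turn, 0 to 2 members were called. Over all genes, 721 were called, 1583 with DESeq2, 1748 with voom and quality weights, 580 to 1748 over the alternatives with all mice, 1046 by adjusted p alone, and 65 (without TG5) to 1554 (without WT4) with a mouse left out. The upper quartile scaling moved the median log2 fold change of all genes to -0.084. Members with an exact p under 0.05 on FPKM numbered 2, and 2 to 3 with a mouse left out. Relative to stroma there were 5, and 3 to 6 with a mouse left out, and relative to epithelium 3, and 2 to 7. Signs turned only for differences that did not pass a test, and their ranges with a mouse left out follow. In edgeR, *Fgf2* ran from -0.38 to 0.10 (0.037 without TG5) and *Fgfr2* from -0.21 (without TG1) to 0.66. On log2(FPKM + 1), *Fgf2* ran from -0.26 to 0.079 (0.063 without TG5) and *Fgfr2* from -0.23 (without TG1) to 0.39. Relative to stroma, *Fgf18* ran from -0.11 (without TG3) to 1.02 and *Fgf1* from -0.014 (without WT5) to 0.88. Relative to epithelium, *Fgf9* ran from -0.69 (without WT3) to 0.93 and *Msx2* from -0.010 (without WT5) to 1.15. The log2 ratio of *Fgfr3* to *Fgfr1* differed by -1.25 to -0.58 and that of *Msx1* to *Hand2* by -1.11 to -0.56 with a mouse left out. With 1 of the 10 mice left out, the *Fgfr3* ratio passed in 2 tests (smallest p = 0.0317, exact). The *Msx1* ratio passed in 1 test (p = 0.0238, exact). The cause was not tested. Among the other called genes, limma voom did not call *Fst*, *Gli1*, *Ihh*, *Il15*, *Myc* or *Ptch1*, voom with quality weights did not call *Fst* or *Ihh* (adjusted p = 0.0715 and 0.169), and edgeR with DESeq2 size factors did not call *Myc* (adjusted p = 0.05005). No paired analysis was possible because the labels give no number that pairs mice across the genotypes. Depth limits *Fgf1*, *Fgf9* and *Fgf18*, which had 0 to 165 counts per mouse.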
